A study of Drosophila melanogaster with 60 samples.

Results

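The regions described here are Ultrabithorax (Ubx) ChIP-seq peaks of embryonic neurons that appeared in both deposited lists of that tissue and stage. Of the 38447 peaks in early neuronal list R, 15227 (39.6%) overlapped a peak of early neuronal list S by at least 1 bp, and these are called the shared regions. The remaining 23220 peaks of list R, called the other R peaks, serve as the comparison. From the side of list S, 15613 of its 66459 peaks (23.5%) overlapped a peak of list R. The regions were chosen by the measured extents of the peaks in these 2 lists, so their widths, their fold enrichments and their overlap with each other are given as descriptions without a test.

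The study profiled chromatin from Drosophila melanogaster embryos in nuclei of one tissue, tagged and purified by INTACT, in which a driver or promoter active in the chosen tissue labels the nuclear envelope. It comprises 60 samples, of which 35 are immunoprecipitations with a peak list and 25 are inputs. The shared regions come from elav>INTACT embryos at stages 10 to 13, in which the elav driver marks neurons, immunoprecipitated with a home made guinea pig antibody against Ubx. They were set against 2 late neuronal Ubx lists (elav>INTACT, stages 14 to 17) and 5 mesodermal Ubx lists (twi-INTACT, in which the twist promoter marks mesoderm), 2 late (stages 14 to 17) and 3 early (stages 10 to 13). Of 20 lists of the histone marks H3K27ac and H3K27me3, all from twi-INTACT mesoderm, 8 were wild type at both stages and 12 came from stage 14 to 17 embryos. These 12 were degradation embryos (twi-INTACT, Mef2>Nslmb,GFP-Ubx), in which the muscle driver Mef2 directs Nslmb against GFP-tagged Ubx, or controls (twi-INTACT; UAS-Nslmb,GFP-Ubx) that carry the tagged Ubx and the Nslmb transgene too. The 6 lists of Pho, a DNA-binding Polycomb group protein, came from the same 2 genotypes at stages 14 to 17. No source states whether lettered or numbered replicates are separate embryo collections, so spread between lists may be technical.

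Ubx is a Hox transcription factor that gives segments of the posterior thorax and anterior abdomen their identity, in the nervous system as in muscle and epidermis. Its homeodomain recognises short AT-rich sites around a TAAT core, often together with the cofactors Extradenticle (Exd) and Homothorax (Hth). Polycomb proteins keep Hox genes silent where they are not needed, and H3K27me3 marks such chromatin, whereas H3K27ac marks active promoters and enhancers.

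Sequences of a few shared regions show the kinds of DNA that the set holds, read from the RefSeq copy of the dm6 (Release 6) assembly on its plus strand. The first 4 windows lie in introns of the Hox genes Ubx and Antp and have 300 bases around each region's midpoint, with capitals on the TAAT core or its reverse complement ATTA. Their folds in lists R and S were 2.85 and 3.11, 2.86 and 2.45, 2.75 and 2.71, and 2.88 and 2.62 in the order printed, and the windows hold 1, 2, 4 and 4 cores. A window is wider than its region, and some cores of both Antp windows lie outside the region.
Ubx intron, chr3R:16672509-16672808: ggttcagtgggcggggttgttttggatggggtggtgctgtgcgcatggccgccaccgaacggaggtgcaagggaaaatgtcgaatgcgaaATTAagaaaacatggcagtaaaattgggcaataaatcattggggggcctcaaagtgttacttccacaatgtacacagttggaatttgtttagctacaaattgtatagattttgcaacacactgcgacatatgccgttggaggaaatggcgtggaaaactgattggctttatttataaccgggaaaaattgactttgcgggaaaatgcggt
Ubx intron, chr3R:16702852-16703151: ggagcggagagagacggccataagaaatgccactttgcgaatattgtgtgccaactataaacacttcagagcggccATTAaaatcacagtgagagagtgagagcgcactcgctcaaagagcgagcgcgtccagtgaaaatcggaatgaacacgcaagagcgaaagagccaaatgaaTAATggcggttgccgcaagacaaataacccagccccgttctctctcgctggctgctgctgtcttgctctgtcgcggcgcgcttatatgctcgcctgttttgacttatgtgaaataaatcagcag
Antp intron, chr3R:6971347-6971646: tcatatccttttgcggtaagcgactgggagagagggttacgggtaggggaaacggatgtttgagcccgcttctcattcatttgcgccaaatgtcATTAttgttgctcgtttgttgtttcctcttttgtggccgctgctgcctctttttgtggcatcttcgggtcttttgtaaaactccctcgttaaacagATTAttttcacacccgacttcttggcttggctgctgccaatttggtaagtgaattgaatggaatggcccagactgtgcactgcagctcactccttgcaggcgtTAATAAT
Antp intron, chr3R:6987500-6987799: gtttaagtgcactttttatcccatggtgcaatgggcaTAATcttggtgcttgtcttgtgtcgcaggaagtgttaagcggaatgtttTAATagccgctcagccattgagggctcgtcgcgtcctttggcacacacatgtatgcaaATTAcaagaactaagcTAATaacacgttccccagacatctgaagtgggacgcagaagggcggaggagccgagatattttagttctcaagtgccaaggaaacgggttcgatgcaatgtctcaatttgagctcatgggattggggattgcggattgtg
The next 2 windows, marked in the same way, are shared regions that met no peak of any other Ubx list although both neuronal lists gave them high enrichment, with folds in lists R and S of 7.03 and 4.35 in the Oamb intron and 3.89 and 4.01 near CG5023. Each window holds 2 cores, but none lies in the region itself. The regions span only chr3R:20698851-20698914 in Oamb and chr3R:20152166-20152226 near CG5023.
Oamb intron, chr3R:20698733-20699032: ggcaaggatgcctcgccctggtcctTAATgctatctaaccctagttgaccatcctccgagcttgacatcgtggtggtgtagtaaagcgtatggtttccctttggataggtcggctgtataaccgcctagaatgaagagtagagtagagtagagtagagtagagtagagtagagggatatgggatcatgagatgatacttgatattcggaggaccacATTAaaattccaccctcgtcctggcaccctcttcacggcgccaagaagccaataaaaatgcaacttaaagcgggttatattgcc
Intergenic near CG5023, chr3R:20152046-20152345: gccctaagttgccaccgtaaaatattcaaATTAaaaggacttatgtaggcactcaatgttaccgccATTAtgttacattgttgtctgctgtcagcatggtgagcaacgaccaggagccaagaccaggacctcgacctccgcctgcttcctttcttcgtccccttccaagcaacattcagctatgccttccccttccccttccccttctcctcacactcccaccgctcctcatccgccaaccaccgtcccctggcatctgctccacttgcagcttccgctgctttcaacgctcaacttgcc
The seventh window, with a fold of 3.04 in list R and 2.94 in list S, is a shared region that a peak of every other Ubx list overlapped, and all 281 of its 20-base words also occur in an annotated ribosomal RNA gene.
Ribosomal DNA, chrX:23455943-23456242: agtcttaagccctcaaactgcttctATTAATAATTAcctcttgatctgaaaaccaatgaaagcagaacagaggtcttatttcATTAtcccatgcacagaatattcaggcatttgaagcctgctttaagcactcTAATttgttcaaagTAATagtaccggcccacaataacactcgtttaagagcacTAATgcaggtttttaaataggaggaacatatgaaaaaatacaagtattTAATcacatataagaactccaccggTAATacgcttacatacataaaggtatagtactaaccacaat
The last 3 windows, of 200 bases and chosen after their values were seen, are narrow shared regions of high enrichment, with capitals on runs of CA, GT, GA or CT and folds in lists R and S of 12.7 and 16.1, 11.8 and 10.9, and 10.1 and 19.3.
rdgA intron, chrX:8968812-8969011: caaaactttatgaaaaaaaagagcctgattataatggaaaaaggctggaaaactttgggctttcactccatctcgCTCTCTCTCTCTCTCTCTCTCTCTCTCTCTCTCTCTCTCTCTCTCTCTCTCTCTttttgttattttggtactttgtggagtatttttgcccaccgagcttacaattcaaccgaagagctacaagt
Near CG11131, chr3L:22894210-22894409: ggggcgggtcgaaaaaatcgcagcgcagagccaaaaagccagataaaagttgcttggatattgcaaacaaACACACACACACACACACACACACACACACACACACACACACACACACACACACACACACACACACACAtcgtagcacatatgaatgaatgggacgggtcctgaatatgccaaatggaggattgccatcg
Near CG14837, chr3L:7560630-7560829: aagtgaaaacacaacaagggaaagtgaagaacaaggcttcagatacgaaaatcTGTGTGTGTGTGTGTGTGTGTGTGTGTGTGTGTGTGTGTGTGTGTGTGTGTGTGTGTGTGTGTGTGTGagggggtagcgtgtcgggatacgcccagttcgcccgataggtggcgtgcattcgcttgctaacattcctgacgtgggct
The longest exact tandem run of a unit of 1 to 10 bp was 54 bases in the rdgA window, 69 near CG11131 and 68 near CG14837, each with a unit of 2 bp. It was 39 bases of a 5 bp unit in the Oamb window and 23 bases of a 6 bp unit near CG5023. The Ubx, Antp and ribosomal windows held no run over 16 bases.

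Before the results, some properties of the lists bear on every overlap. Peaks in the early mesoderm list labelled R2 carry inside the file the name of the early mesoderm replicate S, and those of control H3K27ac list 3 carry the name of a second replicate, so a mix-up of these libraries is possible. The Ubx lists differed greatly in length, with 1336 and 936 peaks in the late neuronal lists, 9865 and 12237 in the late mesoderm lists, and 44627, 9415 and 3015 in early mesoderm lists R2, S and R. Early neuronal lists R and S had 38447 and 66459 peaks. A longer list overlaps more of any set, and no list gives the read depth behind it. A shorter list from fewer marked nuclei and one from less Ubx binding per nucleus cannot be told apart. The labelled tissue could not be checked from the lists, since a peak over a gene does not show that the gene is expressed; the pan-neuronal gene elav and the glial genes repo and gcm held 0 shared regions, the neuronal gene brp and the muscle regulator Mef2 4 each.

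Shared regions were wide, and most of the widest peaks of list R were shared. Their median width was 250 bp (95% interval 246 to 254 from binomial order statistics) and that of the other R peaks was 106 bp. The narrowest width in list R, 55 bp, was that of 1897 shared regions (12.5%) and of 8348 other R peaks (35.95%). Peaks over 1 kb numbered 1670 (10.97%) among shared regions and 27 (0.116%) among other R peaks, and above 5 kb there were 108 shared regions and no other R peak. In all, shared regions covered 7.71 Mb and other R peaks 3.48 Mb. A wide peak has more room to meet a peak of list S, and 98.4% of R peaks over 1 kb but 18.5% of those of 55 bp were shared.

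Enrichment differed little between the sets in the middle of the range and mainly at the top. The authors' fold enrichment had a median of 2.88 in shared regions and 2.85 in other R peaks, with maxima of 27.1 and 6.47. A fold above 5 was given to 183 shared regions and 34 other R peaks. Within the shared regions, the fold in list R and that of the best overlapping peak in list S ranked alike only loosely (Spearman's rho 0.299 over regions of the 2 libraries), as did the widths (rho 0.407).

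How much of a region was shared also varied. A median of 70.8% of a shared region's width lay inside S peaks, 3781 regions (24.8%) lay inside S peaks entirely and 5357 (35.2%) by less than 50%. A single S peak accounted for 14134 regions (92.8%), and at most 7 S peaks fell on 1 region. At the edge of the rule, 431 shared regions met list S by 10 bp or less, with a median width of 116 bp and a median fold of 2.84. Another 451 R peaks missed list S by 10 bp or less, with 111 bp and 2.83. The overlap rule therefore separated peaks of like width and enrichment at its margin.

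**Figure D1:**
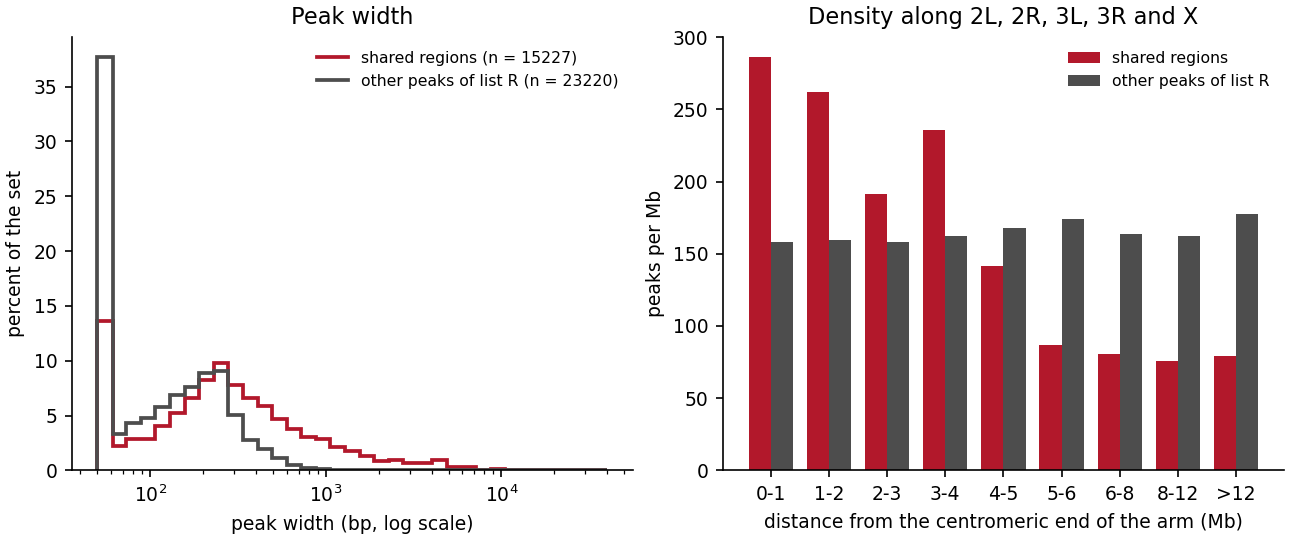
Left, width of shared regions and other R peaks on a log axis in bp, as percent of each set. Right, peaks per Mb of chromosome arm by distance from the centromeric end in Mb; shared regions fell from 286 per Mb in the first Mb to 79.2 per Mb beyond 12 Mb, while other R peaks stayed between 158 and 177 per Mb.

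Shared regions crowded toward the centromeric ends of the chromosome arms, which carry much repetitive and silenced heterochromatin, and over the Y. The plot of density by distance shows 286 shared regions per Mb in the first Mb from the centromeric end of 2L, 2R, 3L, 3R and X, and 79.2 per Mb beyond 12 Mb. Other R peaks had 158 and 177 per Mb in the same bins. Within 5 Mb of a centromeric end, in 18.2% of the arms' length, lay 5582 shared regions (36.7%) and 4032 other R peaks (17.4%). By chromosome, 1046 of 1503 R peaks on the Y were shared (69.6%, or 285 shared regions per Mb). On the mitochondrial genome 8 of 9 were. On the other nuclear chromosomes the share ran from 35.9% to 46.5%, and the density from 73.4 per Mb on chromosome 4 to 127.6 per Mb on 2R.

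The same regions often had more than 1 copy in the assembly. The central 50 bp occurred at more than 1 place in 7005 of 15212 shared regions on the arms (46.0%) and in 3640 of 23219 other R peaks (15.7%). At least 10 copies were found for 3672 shared regions (24.1%) and 2121 other R peaks (9.13%). By the assembly's own repeat masking, 22.1% of shared regions and 10.5% of other R peaks were repeats, masked over at least 50% of the central 200 bp. Counted by base, a mean of 28.0% of the central 200 bp was masked in shared regions and 18.9% in other R peaks. Of all arm bases, 20.9% were masked. How the authors placed reads that match several sites is not given in the sources used here, and the part of such reads in these peaks was not tested.

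Some of the repeated regions could be given a name from the annotation. Midpoints lay in an annotated transposable element in 17.5% of shared regions and 7.34% of other R peaks, against 5.91% of the assembly. Shared regions overlapped 122 of 126 histone genes, whose copies form a tandem cluster, through 35 regions (0.230%). Other R peaks overlapped histone genes through 6 peaks (0.0258%). Shared regions overlapped 99 of 99 ribosomal RNA genes through 5 regions, with 1 other R peak over such genes. Of 290 transfer RNA genes they overlapped 24, through 17 regions (0.112%), below the 38 other R peaks (0.164%) over such genes. The widest shared region, 35215 bp at chr2R:19729619-19764833, held 93 ribosomal RNA genes and 3 pseudogenes, with a fold of 3.67 in list R and 3.26 in list S.

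To describe regions whose centre has no exact second copy, a distal single-copy set was defined after seeing these values, as peaks over 5 Mb from a centromeric end of 2L, 2R, 3L, 3R or X, not masked as repeats, whose central 50 bp occurred once. It kept 6611 shared regions (43.4%) and 17277 other R peaks (74.4%). Diverged repeats can pass this rule. Of the shared regions kept, 2.56% still held a tandem run of at least 20 bp of a unit of 1 to 3 bp. There, 27.7% of R peaks were shared, and the median width was 172 bp in shared regions and 95 bp in other R peaks. Midpoints of R peaks fell inside S peaks in 16.3% of cases in this set, where S peaks covered 10.0% of the bases. Over all arms the same values were 26.98% and 12.05%. The meeting of the 2 neuronal lists was thus further above list S's coverage over all arms than in the distal single-copy set.

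Shared regions lay less often at gene starts than other R peaks over the whole assembly. A gene start stood within 1 kb of the midpoint in 11.8% of shared regions (95% Wilson interval 11.3 to 12.3) and 16.6% of other R peaks, with 16.1% for even tiles of the assembly. Midpoints were intergenic in 31.2% of shared regions and 22.9% of other R peaks, and in non-coding exons in 18.4% and 8.78%. Introns held 23.5% of shared regions and 31.2% of other R peaks. Coding sequence held 13.1% and 16.8%, and a gene start was more than 50 kb away for 26.4% and 9.57%.

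In the distal single-copy set the positions were closer to each other in each class except coding sequence. In coding sequence the order turned round and the gap was wider. Gene starts stood within 1 kb of 21.9% of shared regions and 20.5% of other R peaks. Coding sequence held 26.1% of shared regions and 20.4% of other R peaks, introns 27.4% and 33.4%, and intergenic DNA 18.1% and 19.3%. The excess of non-coding exons shrank to 2.36% of shared regions against 1.91% of other R peaks. The lower share at gene starts was therefore a property of the whole set and not of its distal single-copy regions.

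**Figure D2:**
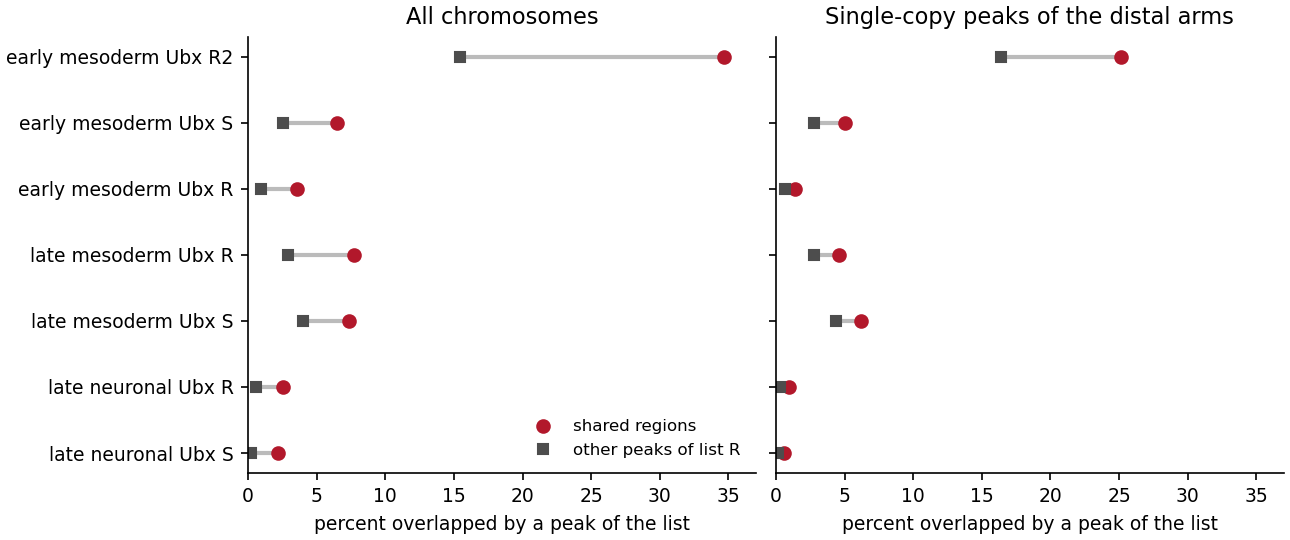
Percent of shared regions and of other R peaks overlapped by each of the 7 other Ubx lists, over all chromosomes (left) and in the distal single-copy set (right). Shared regions stood above other R peaks in every list, from 34.7% against 15.4% in early mesoderm list R2 to 2.15% against 0.215% in late neuronal list S.

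Every other Ubx list overlapped shared regions more often than other R peaks. In the late mesoderm, list R overlapped 7.72% of shared regions and 2.91% of other R peaks, and list S 7.34% and 4.02%. Late neuronal list R overlapped 2.52% and 0.547%, and list S 2.15% and 0.215%. In the early mesoderm, list R2 overlapped 34.7% of shared regions and 15.4% of other R peaks, list S 6.51% and 2.55%, and list R 3.59% and 0.926%. The mean over early mesoderm lists was 14.9% ± 17.2 of shared regions and 6.31% ± 7.96 of other R peaks (SD, n = 3), and the late mesoderm means were 7.53% ± 0.274 and 3.46% ± 0.783 (SD, n = 2). List R2, whose file names its peaks after replicate S, carried the early mean, which was 5.05% of shared regions without it.

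Counted by region, at least 1 early mesoderm list overlapped 5681 shared regions (37.3%), against 25.6% of all R peaks. At least 1 late mesoderm list overlapped 1802 shared regions (11.8%), against 8.6% of all R peaks. At least 1 late neuronal list overlapped 538 shared regions (3.53%), against 1.82% of all R peaks. Across both stages, a mesoderm list overlapped 6372 shared regions (41.8%), against 30.2% of all R peaks, and any of the 7 other lists overlapped 6441 (42.3%), against 30.5%. Of the 538 regions met by a late neuronal list, 69 (12.8%) were met by no mesoderm list. In the other direction, 8786 shared regions (57.7%) met none of the 7 lists.

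At matched width up to 1000 bp the sets were closer. Among peaks of 55 bp, a late mesoderm list overlapped 4.96% of shared regions and 4.66% of other R peaks, and an early one 18.6% and 12.3%. From 56 to 150 bp the late values were 9.66% and 5.91%, and the early ones 26.5% and 16.8%. Above 150 and up to 300 bp they were 10.6% and 8.10% late, and 30.1% and 22.4% early, and above 300 and up to 1000 bp 13.9% and 9.87% late, and 44.0% and 28.4% early. Over 1000 bp the sets were not closer, at 20.8% and 14.8% late, and 76.3% and 33.3% early. That class held 1670 shared regions but only 27 other R peaks. For midpoints outside repeats at 55 bp, the late values were 3.45% and 3.52%. The late mesoderm overlap of the narrowest shared regions was thus close to that of other R peaks.

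Most counts of early mesoderm overlap rest on early mesoderm list R2. Without it, chosen for leaving out after the data were seen, an early mesoderm list met 1253 shared regions (8.23%) and 3.38% of other R peaks. Any mesoderm list met 2524 shared regions (16.6%) and 9.26% of other R peaks, and any of the 6 lists left met 2688 (17.7%) and 9.64%. Of the regions met by a late neuronal list, 164 (30.5%) were then met by no mesoderm list. The shared regions stayed above the other R peaks by each count, and 12539 (82.3%) met none of the 6 lists.

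Regions met by every list were few. All 3 early mesoderm lists overlapped 278 shared regions (1.83%; background 0.78% of all R peaks), of which 68 were not masked repeats. Both late mesoderm lists overlapped 491 (3.22%; background 1.55%), and both late neuronal lists 172 (1.13%; background 0.489%). All 5 mesoderm lists overlapped 244 (1.60%; background 0.687%), of which 50 were not masked repeats. All 7 other Ubx lists overlapped 137 (0.900%; background 0.388%), of which 25 were not masked repeats.

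The 137 regions of all lists were mostly repeats. Masked repeats made up 112 of them, 58 lay on X, 39 on 3L and 4 on the mitochondrial genome. Of those on X, 29 lay in the last Mb before the centromeric end, and 21 of these 29 held a 20-base word of an annotated ribosomal RNA gene, like the ribosomal window printed above. Such words occurred in 35 of 15219 shared regions on the arms (0.230%) and in 4 of 23219 other R peaks. In the distal single-copy set, 4 shared regions and no other R peak were met by all 7 lists. One of them covered exd, the gene of the Ubx cofactor Extradenticle, at chrX:15992683-15994679 (1997 bp, fold 3.99 in list R and 10.5 in list S), and another is the GT tract near CG14837 printed above.

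**Figure D3:**
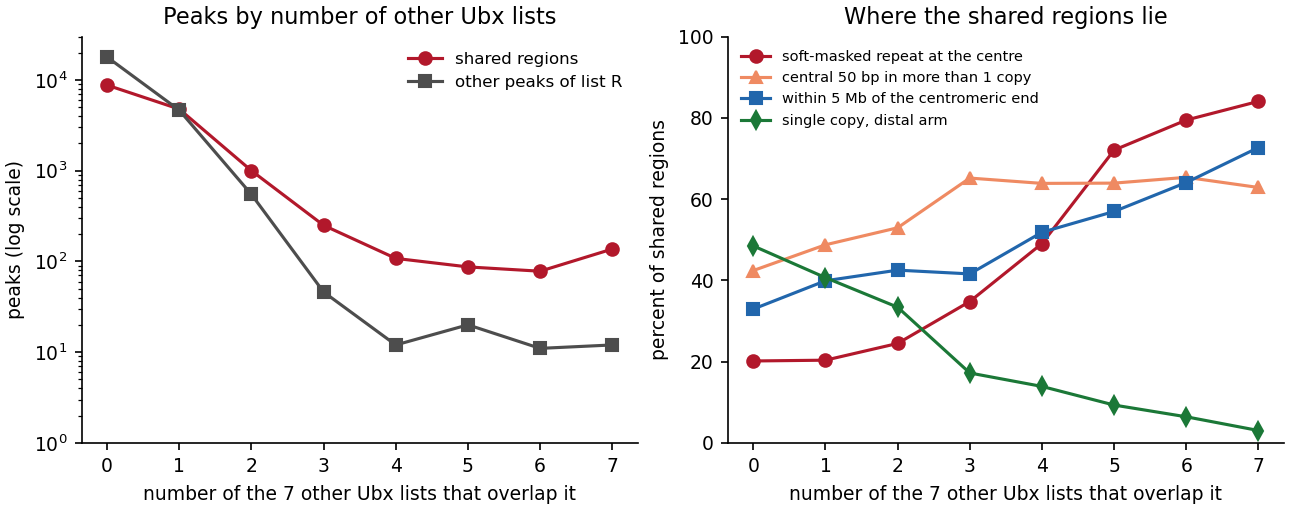
Left, number of shared regions and other R peaks on a log axis by the number of other Ubx lists, 0 to 7, that overlapped them. Right, percent of shared regions in each class that were masked repeats, had more than 1 copy, lay within 5 Mb of a centromeric end, or were distal and single-copy. The right panel holds only regions on the arms whose copies could be counted. Among these, masked repeats made up 20.2% of the regions met by no other list and 84.1% of the 132 met by all 7.

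The number of lists that met a region tracked its repeat content and its overlap with chromatin lists. Regions by number of other Ubx lists, from 0 to 7, numbered 8786, 4780, 1001, 250, 108, 87, 78 and 137. Masked repeats were 20.2% of the regions met by no list and 81.8% of those met by all 7. The median number of the 26 Pho, H3K27ac and H3K27me3 lists that overlapped a region was 5, 8, 10, 13, 14, 15, 17 and 20 in the same order. It was 6 over all shared regions and 4 over other R peaks. Regions met by many Ubx lists were also met by many lists of other targets. Median width differed too, at 206, 313, 478, 585, 453.5, 346, 352.5 and 566 bp from 0 to 7 lists. A wide region has more room to meet any list, and width was not matched here.

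In the distal single-copy set, overlap with the mesoderm remained above that of other R peaks but by less. A mesoderm list overlapped 2319 shared regions (35.1%) and 4175 other R peaks (24.2%) there. Late lists overlapped 9.97% and 6.93%, and early lists 28.7% and 19.03%. Late mesoderm list R overlapped 4.57% of shared regions and 2.77% of other R peaks, list S 6.20% and 4.36%. Early mesoderm list R2 overlapped 25.1% and 16.4%, list S 5.01% and 2.76%, list R 1.39% and 0.654%. All 5 mesoderm lists met 10 shared regions and no other R peak. Without list R2, a mesoderm list met 985 shared regions (14.9%) and 1712 other R peaks (9.91%) there.

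To set the width of the peaks aside, midpoints were compared list by list with an exact two-sided sign-flip permutation test over lists, adjusted over 4 targets. Each list scores the same 2 sets of peaks, and many lists of one target share tissue, stage or genotype. The lists are therefore not independent, and the p-values do not measure spread over regions. A peak of another Ubx list held 4.40% of shared midpoints and 2.25% of other R midpoints on average, a difference of 2.14 points (SD 2.21), higher in 7 of 7 lists (exact permutation p = 0.0156, the smallest these lists allow, adjusted p = 0.0625). Pho peaks held 21.6% of shared midpoints and 16.2% of other R midpoints, a difference of 5.37 points (SD 3.39), higher in 6 of 6 lists (exact permutation p = 0.0312, the smallest possible, adjusted p = 0.0625). Turned round, with S peaks that overlap list R against other S peaks, the Pho difference was 2.53 points, higher in 4 of 6 lists (adjusted p = 0.25, exact permutation test). H3K27ac peaks held 15.02% and 12.33% (a difference of 2.69 points, SD 6.10), higher in 4 of 10 lists (permutation test, p = 0.238, adjusted p = 0.318). H3K27me3 peaks held 14.2% and 10.7% (a difference of 3.52 points, SD 7.86), higher in 5 of 10 lists (permutation test, p = 0.332, also after adjustment). No target passed an adjusted p of 0.05 over all chromosomes. Without list R2 the Ubx difference was 1.33 points, higher in 6 of 6 lists (adjusted p = 0.0625, exact permutation test).

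In the distal single-copy set all 4 targets passed, an analysis chosen after seeing the data. Midpoint differences there were 0.992 points for other Ubx lists (7 of 7, adjusted p = 0.0208, exact permutation test) and 5.41 points for Pho (6 of 6, adjusted p = 0.0312, exact permutation test). For H3K27ac the difference was 3.598 points, higher in 9 of 10 lists (adjusted p = 0.00781, permutation test). For H3K27me3 it was 2.39 points, higher in 10 of 10 lists (adjusted p = 0.00781, permutation test). For Ubx and Pho the unadjusted p stayed at 0.0156 and 0.0312 (exact permutation test), the smallest possible, as over all chromosomes. The adjusted p of Ubx and Pho changed only because the p of the 2 marks fell. Shared regions of the distal single-copy set thus lay more often than its other R peaks inside Pho, H3K27ac and H3K27me3 peaks of the mesoderm. The width of the shared regions, larger in this set too, was not matched in the test. With only masked repeats left out, H3K27ac differed by 2.39 points (6 of 10 lists) and H3K27me3 by 3.08 points (7 of 10). No target passed there, with adjusted p = 0.0625 for Ubx and Pho and 0.223 for both marks (permutation test).

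**Figure D4:**
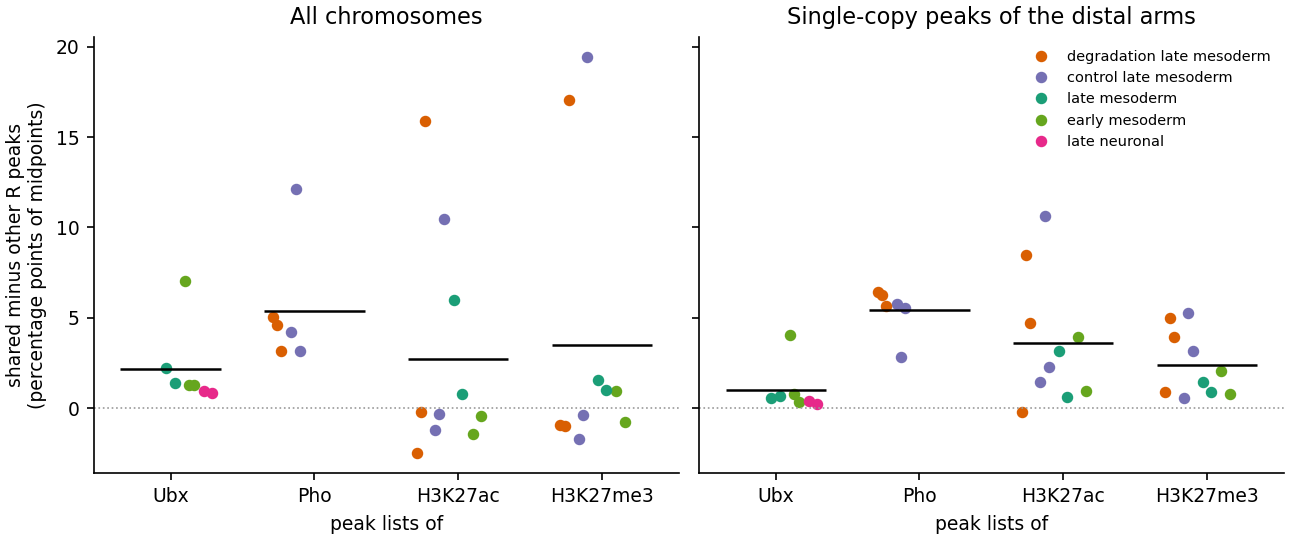
Shared regions minus other R peaks in the percentage points of midpoints inside a peak, one point per list, by target and coloured by group, with the mean as a black line, over all chromosomes (left) and in the distal single-copy set (right). On the left H3K27ac and H3K27me3 lists fall on both sides of 0; on the right all 10 H3K27me3 lists and 9 of 10 H3K27ac lists are above it.

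The spread between mark lists was wide over all chromosomes. H3K27ac differences reached 15.9 and 10.4 points in degradation and control replicate 3 and 5.95 in late wild-type replicate 2. H3K27me3 differences reached 17.1 and 19.5 points in degradation and control replicate 3. Replicate 3 of both genotypes thus stood above the other replicates for both marks, and control H3K27ac replicate 3 is the list with the other replicate's name inside. Without degradation or control replicate 3 in turn, the mean difference was 1.23 and 1.83 points for H3K27ac (degradation, then control left out) and 2.01 and 1.74 points for H3K27me3. For Pho, the largest difference, 12.1 points, was that of control replicate 2.

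Genes with a shared region were longer than genes without one. Of 13968 protein-coding genes, 5430 (38.9%) had at least 1 shared region between 2 kb upstream of their start and their end. These gene regions had a median length of 5.78 kb and those without a shared region 3.74 kb, and 8997 shared regions (59.1%) fell in one, with gene regions covering 72.6% of the arms. The median gene with a shared region had 1, and 75 genes had 10 or more.

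The 10 genes with most shared regions were long, and all but Ppr-Y on the Y lay within 5 Mb of a centromeric end. Myo81F, a myosin gene, held 571 in a region of 1968 kb on 3R. Pzl, which encodes the predicted mechanosensitive channel Piezo-like, held 231, CG17684 105, lovit, a transporter gene needed for histamine storage in photoreceptors, 102, and DIP-lambda, a gene of the neuronal surface protein family that binds Dprs, 86. Ppr-Y on the Y held 65, Parp1, the poly(ADP-ribose) polymerase gene, 44, l(3)80Fg 43, the RNA helicase gene Dbp80 40, and Snap25, a SNARE of synaptic vesicle fusion, 40. Per length, among gene regions of at least 5 kb, the densest were Sdic4 (14.2 per 10 kb), Sdic1 (10.9), SdicB (10.7), Sdic2 (10.1) and Gem4c (9.23), against 0.906 per 10 kb over all gene regions. The Sdic genes are near-identical copies of a dynein chain gene, so which copy a read came from is uncertain.

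In the distal single-copy set, other genes led, named after their values were seen. A region of that set lay in 4538 genes (32.5%), and 22 genes held 10 or more. The cell adhesion gene kirre held 22, the zinc finger gene jing 19, the RNA-binding protein gene bru3 17, the tyrosine phosphatase gene Ptp61F 14, the teneurin gene Ten-m 14, the Ubx cofactor gene hth 14, the RNA-binding protein gene Rbp6 13 and the GATA cofactor gene ush 12. CG46467, Glut4EF, SKIP and olf413 tied with Rbp6 at 13, and dpy and luna tied with ush at 12. Pooled over gene regions the density was 0.580 per 10 kb. The region of kirre, 396 kb long, lay below this at 0.555 per 10 kb, while jing had 1.56. It also spans the gene w, whose coding cover is described at the end.

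Among the Hox genes, 7 of 8 (87.5%) held a shared region, with 81.6% for genes of like length, and both cofactor genes did, with 69.5%. Ubx itself held 12, of which a mesoderm list met 5. Antp held 10 (7 met by a mesoderm list), pb 7 (1), Scr 3 (2), Abd-B 3 (2), Dfd 2 (2) and abd-A 1, and lab held 0. Of the cofactor genes, hth held 14, 7 of them met by a mesoderm list, and exd 1. The bithorax complex (chr3R:16656623-16972236) held 30 shared regions and 64 other R peaks, of which a mesoderm list met 15 of the shared regions. The Antennapedia complex (chr3R:6661427-6999228) held 38 shared regions and 57 other R peaks, and a mesoderm list met 18 of the shared ones. Without list R2 these counts were 4 for Ubx, 4 for Antp, 7 for the bithorax complex and 8 for the Antennapedia complex.

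The 12 shared regions of the Ubx gene itself show the range within one locus. Their widths ran from 55 to 449 bp, and all had a single-copy centre. Folds ran from 2.42 to 4.37 in list R and from 2.34 to 7.25 in list S. The region with the highest fold in list R, 4.37, was a 61 bp intronic region masked as a repeat, with a fold of 2.54 in list S that no other Ubx list met. The highest folds in list S, 7.25 and 5.40, belonged to the 2 regions in coding sequence, which were also the ones met by 2 early mesoderm, both late mesoderm and both late neuronal lists. Lists of Pho, H3K27ac and H3K27me3 met them too, 21 and 23 of 26. Whether these coding reads come from the genomic copy of Ubx alone is not given in the sources used here and was not tested. Of its 9 intronic regions, which include both windows printed above, 3 were met by a mesoderm list. In Antp, where 7 of 10 regions were met by a mesoderm list and none by a late neuronal list, folds ran from 2.64 to 2.90 in list R and from 2.37 to 2.95 in list S.

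The Hox complexes held distal single-copy shared regions at a higher density than the distal arms. H3K27me3 lists met a larger part of the complexes' shared regions than of all shared regions. Distal single-copy shared regions numbered 82.4 per Mb in the bithorax complex and 94.7 per Mb in the Antennapedia complex, against 61.5 per Mb over the distal arms. Shared regions and other R peaks numbered 30 and 64 in the bithorax complex and 38 and 57 in the Antennapedia complex. Over 5 Mb from a centromeric end they numbered 8492 and 18616. The part of R peaks that was shared was thus near that of the arms in the bithorax complex and higher in the Antennapedia complex. The 10 H3K27me3 lists overlapped 7 to 29 of the 30 shared regions of the bithorax complex and 10 to 36 of the 38 of the Antennapedia complex. As shares these were 23.3 to 96.7% and 26.3 to 94.7%, against 4.29 to 50.5% of all shared regions, and all 10 lists were higher in each complex. The 6 Pho lists overlapped 7 to 15 of the 30 (23.3 to 50%) and 15 to 22 of the 38 (39.5 to 57.9%), against 33.7 to 44.6% of all shared regions. Pho was higher in 3 of 6 lists in the bithorax complex and 5 of 6 in the Antennapedia complex. Its mean was 37.8% in the bithorax complex, near the 38.5% of all shared regions, and 47.4% in the Antennapedia complex. Median folds were 2.86 and 2.81, close to that of all shared regions.

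Of the fixed gene lists, most held a shared region about as often as genes of like length. Neuronal differentiation and synapse genes had one in 27 of 34 (79.4%), with 78.3% for genes of like length, and axon guidance genes in 32 of 40 with 77.0% for like length. Neuronal identity factors had one in 25 of 40 (62.5%, with 66.2%), and neuroblast temporal and progenitor factors in 10 of 16 (62.5%, with 56.8%). Glial genes had one in 6 of 12 (with 56.8% for like length), and proneural and Notch target genes in 7 of 18 (38.9%, with 33.2%). Most of these lists hold genes longer than the median and the proneural and Notch target list does not, so the share for like length is the one to read them against.

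The lists of other tissues and of general functions also stood near the genes of like length, segmentation and ectoderm genes farthest above them. Muscle differentiation genes had a shared region in 24 of 34 (70.6%, with 66.5% for genes of like length), and mesoderm and muscle identity factors in 20 of 33 (60.6%, with 56.1%). Gut and endoderm factors had one in 10 of 15 (66.7%, with 61.6%), blood cell genes in 9 of 16 (56.3%, with 54.9%), and signalling genes of the Wnt, TGF-beta and EGF pathways in 24 of 33 (72.7%, with 68.5%). Segmentation and ectoderm genes reached 22 of 34 (64.7%, with 53.0%), and Polycomb and Trithorax group genes 18 of 28 (64.3%, with 54.1%). Housekeeping genes had one in 10 of 22 (45.5%, with 38.3%), and classic Ubx targets in 10 of 13 (76.9%, with 77.0%). No list was tested.

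Within the neuronal lists, counts per gene ranged widely. The neuroblast factor genes pros (8), svp (7), brat (7) and grh (5) held most, while hb, Kr, cas and mira held 0. Among neuronal identity factors, zfh1 and chinmo held 8 each, and jim and OdsH 7 each, while eve, en, ind and Dr held 0. Among synapse genes, Snap25 held 40, Appl and CadN 7 each, and unc-13, Fas2, slo and Sh 5 each, while elav, Rbp9, Shal and cac held 0. Among guidance genes, kirre held 31, Con 15, and Lar and Ten-m 14 each, while NetB, PlexA, Eph and Ephrin held 0. The kirre region spans 396 kb, including the gene w. Its density, 0.783 per 10 kb, was below the 0.906 over all gene regions.

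Outside the nervous system, the muscle differentiation list was led by kirre, which the guidance list holds too (31), Msp300 (14) and sns (9), with Zasp52, hbs and wb at 6 each. In the Polycomb and Trithorax list, jing held 22, osa 4, and Pc, ph-p and its near-identical copy ph-d 3 each. Of the classic Ubx targets, Antp held 10, bs (the gene of serum response factor) 5, the limb gene Dll 4 and the wing genes salm and vg 2 each, while dpp, tsh and ap held 0. Of the signalling genes, the Wnt receptor gene fz2 held 7, and the ligand genes vn and bnl 6 and 5.

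**Figure D5:**
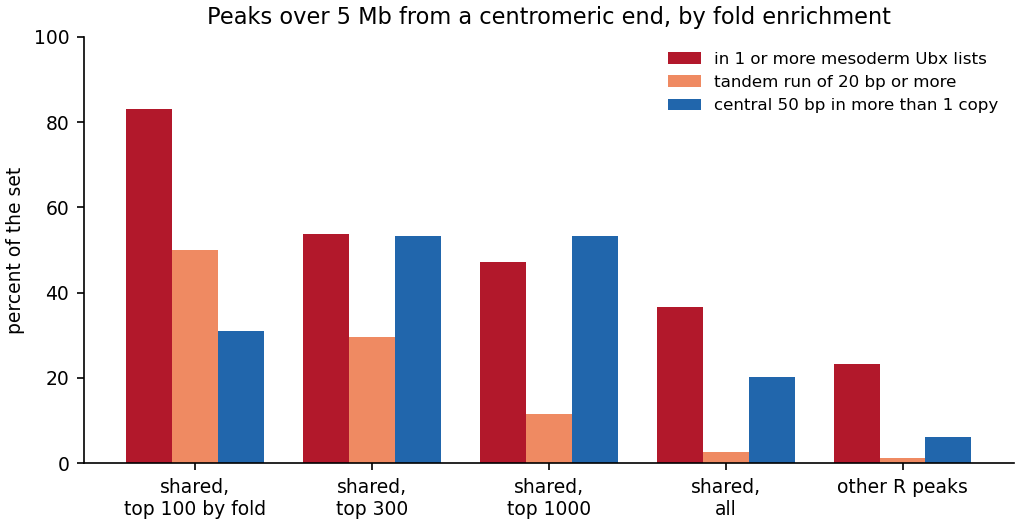
Percent of peaks over 5 Mb from a centromeric end that met a mesoderm Ubx list, held a tandem run, or had more than 1 copy, for the 100, 300 and 1000 shared regions of highest fold (the lower of the folds in lists R and S), all 8492 shared regions there and the 18616 other R peaks. Tandem runs were in 50 of the top 100, in 2.71% of all shared regions and in 1.24% of other R peaks.

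The shared regions of highest enrichment were narrow and often tandem repeats. A tandem run was at least 20 bp of a unit of 1 to 3 bp in the central 200 bp, and all peaks counted here lay over 5 Mb from a centromeric end. Of the 100 with the highest fold, ranked by the lower of their folds in lists R and S, 50 held a tandem run, 31 had more than 1 copy, 46 lay on X and 83 met a mesoderm list, with a median width of 84 bp. Of all 8492 shared regions there, 2.71% held a tandem run, 20.3% had more than 1 copy and 36.6% met a mesoderm list. Of the 18616 other R peaks there, 1.24% held a tandem run, 6.08% had more than 1 copy and 23.2% met a mesoderm list. Without list R2, a mesoderm list met 72 of the top 100, 14.96% of all shared regions there and 9.57% of the other R peaks. Even tiles of the distal arms held a tandem run in 1.01%. High-fold peaks of the other set were narrow too. In the distal single-copy set, the top 100 shared regions had a median width of 85 bp, 46 with a tandem run and 68 met by a mesoderm list. The top 100 other R peaks, ranked by their fold in list R, had a median width of 58 bp, 18 with a tandem run and 16 met by a mesoderm list. The CA, GT and CT tracts printed above belong to this group, and the fold of a peak and its overlap with the mesoderm were high together there.

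Short motifs of Ubx and its partners were searched on both strands in the central 200 bp of shared regions outside masked repeats. The homeodomain word TAATTA occurred in 5.54% of 11854 shared regions and 7.91% of 20781 other R peaks, in 10.8% of windows 1 kb to either side of shared regions and in 12.04% of even tiles. TTAATTA, which contains TAATTA, occurred in 3.21% of shared regions, 5.21% of other R peaks and 7.97% of tiles. The Exd-Hox words TGATTTAT and TGATTAAT occurred in 1.15% and 0.557% of shared regions, 1.69% and 1.03% of other R peaks and 2.13% and 1.42% of tiles. The posterior Hox word TTTATGG occurred in 3.64%, 4.58% and 5.24% in the same order. Each of these AT-rich words was less frequent in shared regions than in other R peaks and in tiles.

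Base composition differed in the same direction. Median GC content of these windows was 49.5% in shared regions, 48.0% in other R peaks, 43.5% in the flanks and 43.0% in tiles. Within windows of 45 to 55% GC, TAATTA occurred in 4.79% of shared regions, 6.38% of other R peaks and 6.56% of tiles. The values were 11.3%, 13.03% and 13.5% at 35 to 45% GC and 0.935%, 1.54% and 1.32% above 55% GC. Below 35% GC, where 201 shared regions lay, they were 20.9%, 18.6% and 23.5%, and TGATTTAT occurred in 5.97%, 4.04% and 3.70%. The lower frequency of TAATTA in shared regions than in other R peaks thus held above 35% GC and turned round below it. The Hth word TGACAG occurred in 8.07% of both sets and 7.75% of tiles. The GAGA factor word GAGAGAG occurred in 2.94% of shared regions, 2.71% of other R peaks and 2.39% of tiles, the Pho word GCCAT in 39.2%, 40.01% and 36.1%, and the Zelda word CAGGTAG in 1.502%, 1.43% and 1.14%. A matching word is a description of the letters and not a binding site.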

How the data were processed

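Chromatin of INTACT-purified nuclei was immunoprecipitated and amplified with ThruPLEX, per the labels' protocols. The submitters' processing notes name FastQC, Bowtie, MACS2 and the dm6 build; versions, settings and the treatment of reads with several matches are not given in the sources used here. Each of the 35 deposited lists gives, for each broad peak, position, a score, a fold enrichment and −log10 p and q, all made by the authors with their peak caller. The score ranked peaks in one alternative, and the fold described and ranked shared regions. One list per library was used, and the combined early neuronal list served in one alternative. Peak lists hold no read counts, so the depth is unknown, and binomial intervals cover counting error only.

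Shared regions were peaks of early neuronal list R that overlapped list S by 1 bp or more. They and the gene lists were chosen with earlier results of these data known. Midpoints and widths were placed on the RefSeq copy of dm6 (Release 6), whose repeat masking (soft-masked over at least 50% of the central 200 bp) defined repeats; genes came from Ensembl release 115. Of 1050860 peaks on the arms, 13 passed an arm's end, by at most 71 bp. Gene regions ran from 2 kb before the start to the end. Genes named are the 10 with most regions, the 5 densest of at least 5 kb, the Hox and cofactor genes, and up to 4 with most and with none in each list. Regions printed, unless said otherwise, were taken from those less than 10% soft-masked with no UTR base, among the 5 of highest fold (the lower of lists R and S) in the sets met by all mesoderm lists or by no other Ubx list, and the highest in Ubx and Antp. The marks were compared by an exact two-sided sign-flip permutation test over lists, with Benjamini-Hochberg adjustment over 4 targets and a threshold of 0.05. The procedure was tested on simulated data with lists drawn independently, which the real lists are not. Alternatives changed the overlap rule, the peaks kept, the windows and the libraries. The scripts ran under Python 3.11.15. Tests used scipy 1.17.1, tables pandas 2.3.3 with numpy 2.4.6, and plots matplotlib 3.10.9.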

Additional observations from a re-analysis of the deposited data

Results flagged for a closer look

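One pair of groups out of 8 compared had H3K27ac lists on opposite sides of 0 in the share of midpoints inside a peak, shared regions minus other R peaks. In late wild-type mesoderm the differences were 5.95 points in replicate 2 and 0.802 points in replicate 3. In early wild-type mesoderm they were -1.42 points in replicate 1 and -0.445 points in replicate 2. The difference between the stages was not tested, since each stage has 2 lists. In the distal single-copy set all 4 lists were above 0, with 3.16 and 0.615 points in the late stage and 3.92 and 0.945 points in the early stage.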

How the results depend on the processing

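The shared regions depended on the rule. They numbered 9870 where S peaks had to cover at least 50% of the R peak, 5187 with reciprocal 50% cover, 7312 when each list kept only its better-scored 50%, and, in sets added after seeing the data, 8207 with a central 50 bp that occurs once and 6611 in the distal single-copy set. In that order, the late mesoderm mean share was 8.23, 11.3, 10.8, 7.08 and 5.38%, the share within 1 kb of a gene start 10.1, 7.89, 6.13, 18.9 and 21.9%, and the median width 238, 377, 399, 187 and 172 bp. With S cut to the number of R peaks, these 3 values were 8.601%, 9.43% and 284 bp, without repeat peaks 5.87%, 14.5% and 228 bp, and on the main arms alone 7.16%, 12.6% and 243 bp. Taking S peaks that overlap R gave 7.81% and 275 bp, and a Pho difference of 2.53 points. The authors' combined list gave 15274 shared regions. Midpoints instead of overlap gave a late mesoderm share of 3.79%, and a 500 bp window a gene start share of 5.91%. Genes with a shared region numbered 1846 with reciprocal cover, 1883 among better-scored peaks and 2431 within 1 kb of a start.

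The midpoint differences became significant in both added sets. They were 1.73 (Ubx), 5.92 (Pho), 3.20 (H3K27ac) and 2.76 points (H3K27me3) with single-copy centres, and 0.992, 5.41, 3.598 and 2.39 points in the distal set; the cause was not tested. None of these means or shares changed sign under an alternative, but in the distal set the share near gene starts (21.9% of shared regions, 20.5% of other R peaks) and in coding sequence (26.1%, 20.4%) stood the other way round from the whole set, as did both early H3K27ac lists. Leaving out 1 list at a time, the late mesoderm share ranged from 7.34 to 7.72%, the early from 5.05 to 20.6%, and the differences from 1.33 to 2.36 (Ubx), 4.02 to 5.82 (Pho), 1.23 to 3.27 (H3K27ac) and 1.74 to 4.10 points (H3K27me3), with lowest adjusted p of 0.0625, 0.125, 0.297 and 0.238 by permutation.

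Leaving out neuronal list R or S was not possible, since the rule needs both. No paired analysis was possible because no test compares groups of samples; each sets shared regions against other R peaks within the same list, which already pairs the sets by list. H3K27ac and H3K27me3 lists of one number share an input, per the labels, so the tests of the marks are not independent. With depth unknown, absence of a peak does not show absence of binding.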

Other observations

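A few genes had most of their coding sequence inside shared regions, an observation chosen after the values were seen. Of 2617 genes with a single-copy shared region over coding sequence, 34 (of at least 500 coding bases) had at least 50% of it covered. In 3 of these, w, exd and Ubx, at least 5 of the 7 other Ubx lists covered 10% or more of the coding bases. The gene w, which encodes the eye pigment transporter White, had 80.1% of its coding bases and 8.45% of its intron bases in shared regions. Late mesoderm lists R and S covered 100% of its coding bases each, late neuronal lists R and S 100% and 34.2%, and early mesoderm lists R2, S and R 36.1, 23.5 and 0%. The gene exd had 74.7% of its coding and 96.5% of its intron bases in a shared region.

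Ubx had 55.1% of its coding bases and 2.20% of its intron bases in shared regions. The coding bases lay in 2 of them, chr3R:16658774-16659026 and chr3R:16732724-16733114. The first had folds of 2.90 and 7.25 in early neuronal lists R and S, 4.69 and 4.51 in late neuronal lists R and S, 1.97 and 2.81 in late mesoderm lists R and S, and 3.78 and 4.49 in early mesoderm lists R2 and S, with no peak in early mesoderm list R. The second had 2.42 and 5.40, 5.07 and 3.83, 2.10 and 2.55, and 3.69 and 3.91 in the same order, again with no peak in early mesoderm list R. Of the 26 Pho, H3K27ac and H3K27me3 lists, 21 overlapped the first region and 23 the second. Whether the reads over these exons come from the genomic copies alone, or also from transgene or cDNA sequence, is not given in the sources used here and was not tested, so the cover and folds of w, exd and Ubx may not measure Ubx binding.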
